A study of Mus musculus with 18 samples.

Results

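Mouse embryonic stem cells of 2 conditional Bap1 lines were compared without the treatment meant to switch their alleles, across all genes counted. The comparison takes the 3 libraries labelled C91A_D4 and the 3 labelled cKO_D4, 6 of the 18 libraries of the series, chosen by these labels alone. C91A_D4 is given as the control of a knock-in line whose catalytic cysteine can be changed to alanine (BAP1 C91A), and cKO_D4 as the control of a BAP1 knockout line. In the names of the treated groups, C91A_D4_4OHT and cKO_D4_4OHT, 4OHT stands for 4-hydroxytamoxifen (4-OHT), given at 100 nM for 4 days so that Cre recombinase recombined the alleles, and these names are absent from the untreated groups compared here. The 3 wild type libraries (WT_D4, BAP1 wt) and the 3 libraries of each treated line serve below to place the levels. The cells of all groups received emricasan, a pan-caspase inhibitor that blocks apoptosis. The driver of Cre, the number of clones behind each line and the strain of origin are not given in the sources used here. Neither is whether the 3 libraries of a line came from separate cultures. P-values therefore measure only the spread between libraries within a group, estimated over all 18 libraries of the series.

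BAP1 is a nuclear deubiquitinase that removes ubiquitin from lysine 119 of histone H2A, a mark placed by Polycomb repressive complex 1 (PRC1), whose ligase subunit is RNF2. Genes that PRC1 and the methyltransferase complex PRC2 keep silent in embryonic stem cells include many regulators of development, such as the Hox genes. Embryonic stem cells in culture move between a naive and a more advanced state and give rise to small numbers of cells that resemble primitive endoderm. In a conditional line, untreated cells serve as the reference for the treated cells of the same line.

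The libraries of the C91A line held 14.4, 23.01 and 14.9 M (mega) counts, and those of the knockout line 22.1, 20.8 and 18.4 M. Counts of every pair of libraries within a line differed by more than sampling alone gives, with a chi-square per degree of freedom from 1.96 to 5.41, so no library repeated another. The highest value was that between C91A replicates 1 and 2. Levels below are in CPM (counts of the gene per M counts of the library), with library sizes scaled by the trimmed mean of M values (TMM), and cannot be compared between genes of different length; wild type levels are means ± SD of 3 libraries. The markers that define embryonic stem cells were read at high levels: Pou5f1, Sox2, Nanog, Zfp42, Esrrb and Dppa5a summed to 2638 to 2921 CPM in the C91A line and 3149 to 3251 CPM in the knockout line, against 2561 to 2683 CPM in wild type. The 8 fibroblast (feeder cell) markers summed to 25.8 to 29.2 and 29.0 to 29.4 CPM, and the haemoglobin gene Hbb-bs was at 0 in all of these libraries.

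The lines differed without the treatment. Of 16875 genes tested with edgeR's quasi-likelihood test, 5891 (34.9%) had a Benjamini-Hochberg adjusted p under 0.05, 2967 (17.6%) of them higher and 2924 (17.3%) lower in the C91A line. Most of these differences were small: 4094 of the 5891 (69.5%) were within 1.5-fold. At least 2-fold differences numbered 815 (4.83%), of which 528 (3.13%) were higher and 287 (1.7%) lower in the C91A line. The CPM ranges of the lines did not overlap for 22.4% of tested genes with the C91A line above and for 22.8% with it below. The median log2 fold change of all tested genes was -0.01.

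**Figure D1:**
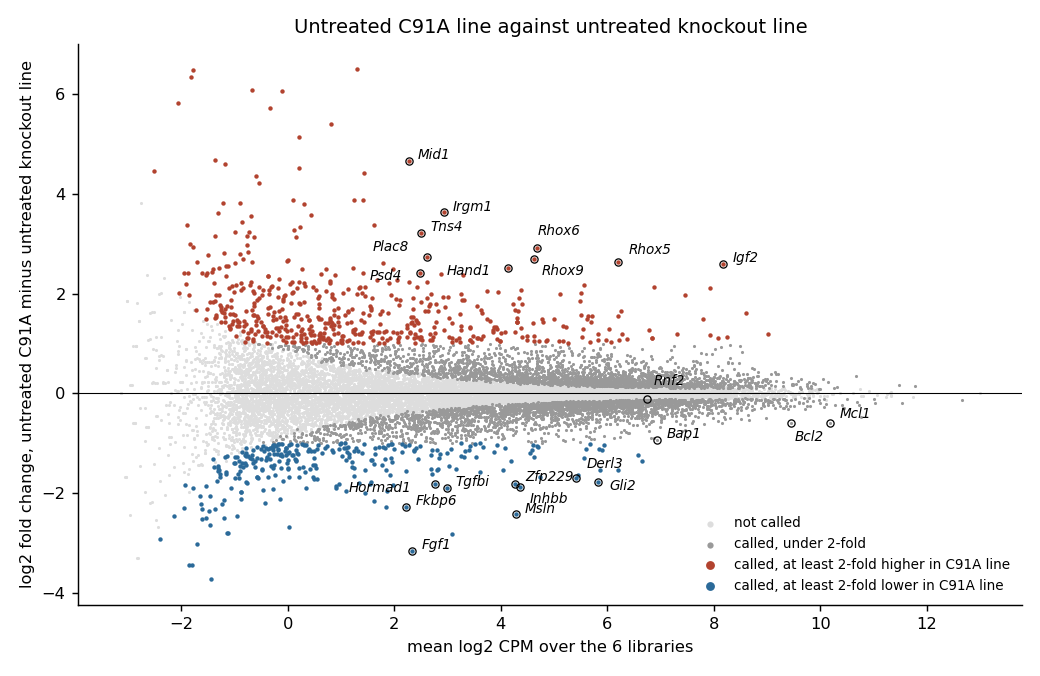
Log2 fold change between the untreated C91A and knockout lines (y axis) against the mean log2 CPM over the 6 libraries (x axis), 1 point per tested gene. Open circles mark Bap1, Rnf2, Bcl2, Mcl1 and those of the highest and lowest genes by the naming rule that are described in the text, from Mid1 at 4.66 to Fgf1 at -3.16.

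Bap1 itself, the gene whose alleles are conditional in both lines (chromosome 14, 31251352 to 31259930, GRCm38), was lower in the untreated C91A line. It stood at 93.8, 84.8 and 88.03 CPM in the 3 libraries of the C91A line and at 170.0, 167 and 169 CPM in those of the knockout line, and the ranges were far apart. The difference was log2 fold change -0.93, SE 0.05, adjusted p = 2.7e-19, which corresponds to a 1.903-fold lower level. Wild type libraries held 171, 183 and 182 CPM, so the untreated knockout line lay slightly below wild type and the untreated C91A line well below both. After 4-OHT the C91A line held 163, 166 and 166 CPM and the knockout line 151, 147 and 152 CPM. These are counts over the whole gene model, which do not separate exons inside a recombined stretch from the rest, so they do not check either allele.

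Genes working with or against BAP1 differed in part. Rnf2, the ligase that places the mark BAP1 removes, was at 95.3, 108 and 105 CPM in the C91A line and 110.3, 114 and 111 CPM in the knockout line, a difference that missed the threshold (log2 fold change -0.12, SE 0.06, adjusted p = 0.117). Of 12 members of the BAP1 complex list, 2 were higher (16.7%) and 4 lower (33.3%), Bap1 included, with a median log2 fold change of -0.11. The others named were the forkhead partners Foxk2 (0.31, higher) and Foxk1 (-0.27, lower) and the ubiquitin enzyme Ube2o (0.26, higher). Of 27 PRC1 genes tested, 4 were higher and 4 lower (14.8% each way, against 17.6% and 17.3% of all genes), led by the RING partner Pcgf5 (log2 fold change 0.72), while Kdm2b, which brings PRC1 to CpG islands, was lower at -0.40. Of 13 PRC2 genes, 4 were higher (30.8%) and 3 lower (23.1%). The PRC2 accessory subunit Phf19, which reads methylated histone H3, was the only one past 2-fold, at 40.7, 42.003 and 40.7 CPM in the C91A line and 19.4, 19.2 and 20.9 CPM in the knockout line (log2 fold change 1.05, SE 0.07, adjusted p = 2.7e-15).

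Of the survival genes of the BCL2 family, Mcl1 and Bcl2 were lower in the C91A line, Bcl2l1 was higher (0.25) and Bcl2l2 (-0.11) did not pass the test. Mcl1 stood at 953, 951 and 944 CPM against 1446, 1405 and 1455 CPM, without overlap (log2 fold change -0.60, SE 0.04, adjusted p = 5.6e-16). Bcl2 stood at 559, 549 and 598 CPM against 882, 847 and 855 CPM, also without overlap (log2 fold change -0.60, SE 0.19, adjusted p = 0.0118). With DESeq2 its adjusted p was 0.481 at a like size of -0.60. Both fits took the spread from all 18 libraries, so it is not that of these 6 alone. Of the 15 family members tested 4 were higher (26.7%, against 17.6% of all genes) and 6 lower (40.0%, against 17.3%), with a median of -0.11. The other lower ones included the killers Bbc3 (-0.40) and Pmaip1 (-0.34). Higher members other than Bcl2l1 are not named here, so the killers are not described as a set.

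**Figure D2:**
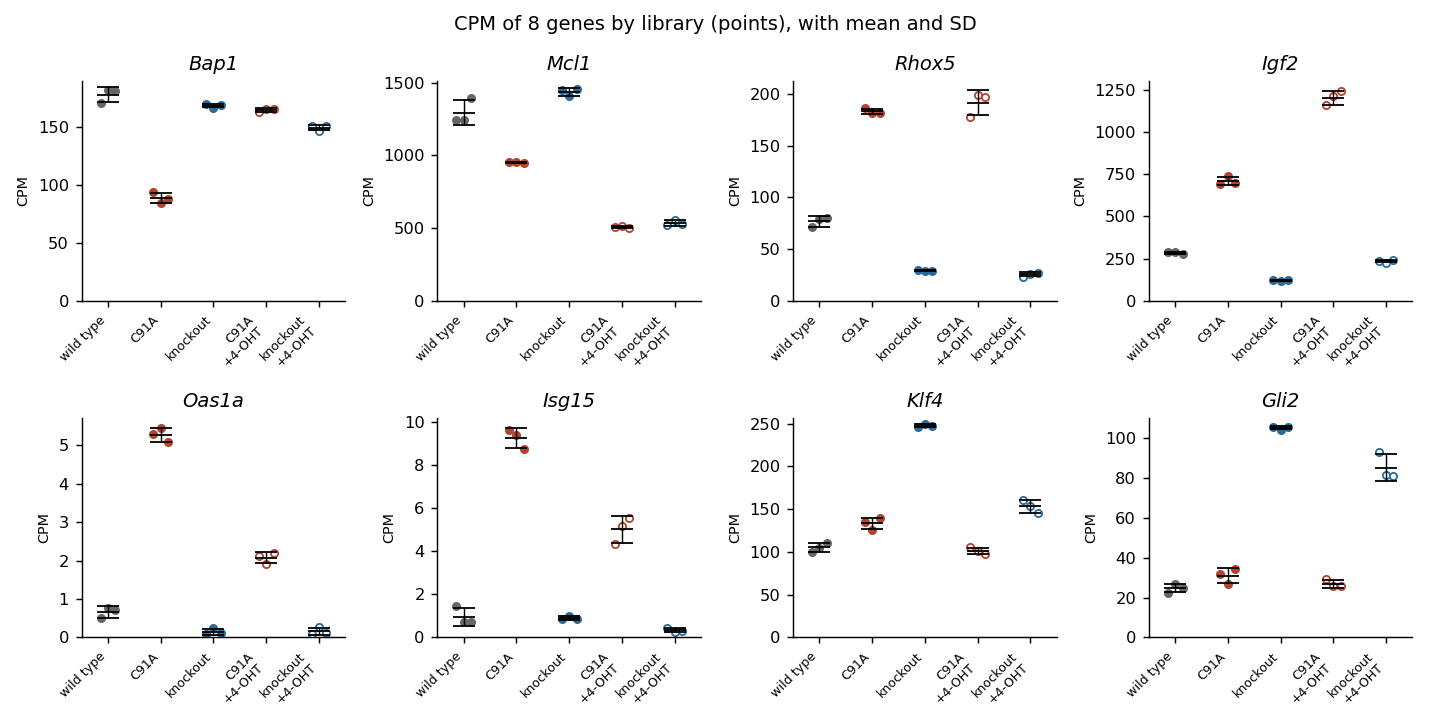
CPM of 8 genes in each library (points) with the mean and SD (bars) in wild type, in both untreated lines (filled) and in both treated lines (open); each panel has its own linear axis from 0. Bap1 is low in the untreated C91A libraries alone, while Rhox5, Igf2, Oas1a and Isg15 are above the knockout line in the C91A line both without and with 4-OHT, and Klf4 and Gli2 are below it.

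The 10 genes highest in the C91A line by the naming rule were led by Mid1, a ubiquitin ligase of microtubules encoded at the end of the X chromosome. Its level was 20.6, 26.8 and 21.3 CPM in the C91A line and 0.703, 0.933 and 1.11 CPM in the knockout line (log2 fold change 4.66, SE 0.17, adjusted p = 9.4e-25). The groups lay far apart, and wild type, at 1.95 ± 0.171 CPM, was near the knockout line. Irgm1, an immunity-related GTPase, followed at 25.8, 27.8 and 24.5 against 1.89, 2.19 and 2.27 CPM (log2 fold change 3.63, SE 0.13, adjusted p = 3.5e-25). Tns4, which encodes a focal adhesion protein, stood at a log2 fold change of 3.22. Plac8 had 2.74 and the Arf exchange factor Psd4 had 2.42. The other 5 of these 10, Rhox6, Rhox9, Rhox5, Igf2 and Hand1, are genes of placenta and early extraembryonic tissue and are taken up below. The CPM ranges of the lines did not overlap for any of these 10 genes, as the rule requires.

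Among the 10 lowest, Fgf1, a fibroblast growth factor, stood at 1.97, 1.23 and 1.82 CPM in the C91A line and 13.9, 15.2 and 14.2 CPM in the knockout line (log2 fold change -3.16, SE 0.16, adjusted p = 5.4e-20), with wild type at 0.785 ± 0.209. Msln, which encodes mesothelin, had 9.16, 7.48 and 8.53 against 44.7, 44.6 and 44.6 CPM (log2 fold change -2.43, SE 0.08, adjusted p = 1.3e-25). For both genes wild type was nearer to the C91A line, so it was the knockout line that stood apart. Fkbp6 (-2.28), a germ cell gene, and Tgfbi (-1.89), a secreted adhesion protein, followed. Inhbb (-1.87), an activin subunit, Hormad1 (-1.82), a meiotic chromosome protein, Zfp229 (-1.82), the hedgehog effector Gli2 (-1.78) and Derl3 (-1.69), of the endoplasmic reticulum, were also among them.

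Trophoblast genes were the group with the largest median difference of the 34 lists. The trophoblast lineage forms the placenta, and embryonic stem cells express little of its programme. Of 21 members tested, 17 were higher (81.0%, against 17.6% of all genes) and 1 was lower (4.76%, against 17.3%) in the C91A line. At least 2-fold higher were 15 (against 3.13% of all genes), and the median log2 fold change was 1.49. The homeobox genes of the X-linked Rhox cluster led. Rhox6 stood at 75.4, 65.7 and 70.3 CPM in the C91A line and 9.27, 9.52 and 9.13 CPM in the knockout line (log2 fold change 2.92, SE 0.09, adjusted p = 1.4e-27). Rhox9 stood at 63.95, 59.9 and 63.2 against 8.92, 10.3 and 9.71 CPM (log2 fold change 2.69, SE 0.09, adjusted p = 2.6e-26). Rhox5 stood at 186, 182 and 182 against 30.1, 28.8 and 29.1 CPM (log2 fold change 2.64, SE 0.06, adjusted p = 6.7e-33). None of the 3 overlapped between lines, and wild type lay between them, at 28.8 ± 1.07, 24.4 ± 2.12 and 76.7 ± 5.07 CPM. The Rhox genes are members of 1 family, and whether reads were shared among them was not measured.

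The transcription factor Hand1, needed for giant cells, rose with them, at 42.7, 40.2 and 41.9 against 7.25, 7.699 and 6.75 CPM (log2 fold change 2.52, SE 0.10, adjusted p = 3.5e-24). The keratins of simple epithelia that trophoblast makes were also higher: Krt7 by 2.17, Krt19 by 1.49, Krt18 by 1.49 and Krt8 by 1.48 on the log2 scale. Krt18 was the most abundant of these in counts, at 383, 357 and 377 CPM in the C91A line and 137, 127 and 133 CPM in the knockout line. The placental homeobox gene Esx1 (2.08), the surface marker Plet1 (2.04), Gata3 (1.44) and Ascl2 (1.18) were higher as well. Other transcription factors of the list differed less. Tfap2c (0.25) and Tead4 (0.26) were higher by small amounts, and the 3 members that did not pass the test were Eomes (0.23), Ets2 (0.10) and Tfap2a (-0.02). Cdx2, the factor that sets up the lineage, was higher at a low level (0.949, 2.08 and 2.54 against 0.791, 0.653 and 0.527 CPM, adjusted p = 4.7e-04). Gata2 was the 1 lower member (-0.29), a call lost without C91A replicate 2 (adjusted p 0.145) or 3 (adjusted p 0.0670). Mean CPM was above wild type for 18 of the 21 genes in the C91A line and for 3 in the knockout line, so for most members the lines lay on opposite sides of wild type. In bulk RNA, more cells of a kind and more RNA per cell cannot be told apart.

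Imprinted genes split. Of 42 tested, 15 were higher (35.7%, against 17.6% of all genes) and 10 lower (23.8%, against 17.3%) in the C91A line. At least 2-fold higher were 9 (against 3.13% of all genes) and at least 2-fold lower 2 (against 1.7%), with a median of -0.01. Igf2, the paternally expressed growth factor (chromosome 7), stood at 693, 739 and 699 CPM in the C91A line and 119.7, 114 and 120.4 CPM in the knockout line (log2 fold change 2.59, SE 0.05, adjusted p = 4.2e-36), with wild type between at 285 ± 5.62. Its neighbour H19, a noncoding RNA expressed from the maternal copy, was higher too, at 105, 102 and 101 against 44.4, 39.7 and 42.2 CPM (log2 fold change 1.28, SE 0.06, adjusted p = 3.2e-20), but both lines were below wild type, at 292 ± 13.8 CPM. Igf2 and H19 are expressed from opposite parental copies, and both were higher in the same line. The maternally expressed RNAs of the Dlk1-Meg3 region on chromosome 12 were higher together, Rian by 1.53, Meg3 by 1.13 and Mirg by 1.75 on the log2 scale. Meg3 had 10.04, 8.59 and 10.6 against 4.35, 5.04 and 3.75 CPM, with wild type at 8.72 ± 0.418, so the knockout line was the low one.

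Slc38a4 (1.17) and Gab1 (1.13), together with Sfmbt2 (1.65) from outside the list, are paternally expressed in extraembryonic tissue through a histone methylation imprint, and all 3 were higher in the C91A line. Sfmbt2 had 117, 149 and 138 against 40.1, 42.9 and 46.6 CPM (log2 fold change 1.65, SE 0.07, adjusted p = 3.2e-23). In the other direction, Sgce (-1.29) and Nnat (-1.09) were lower. Nnat stood at 12.7, 10.5 and 11.3 CPM in the C91A line and 24.4, 24.03 and 24.5 CPM in the knockout line, and wild type had 1.08 ± 0.194, below both. Which parental copy was read was not measured, since the files hold counts per gene.

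Interferon-stimulated genes, which cells switch on through transcription factors such as STAT2 and IRF9 when interferon or viral nucleic acid is sensed, were higher in the C91A line nearly throughout. These factors bind an element in the promoters whose core is a pair of GAAA blocks. RefSeq promoter windows of the GRCm38.p6 build, 250 bases before to 50 after the start, show this core in 3 members with large differences, with capitals marking the core, GAAA, any 2 bases and GAAA again, on either strand, overlapping matches joined, and the letters running 5′ to 3′ along the gene. The genes lie on the minus strand at chr4:156200769-156201068 (Isg15), chr5:120907476-120907775 (Oas1a) and chr7:102565433-102565732 (Trim21).
Isg15: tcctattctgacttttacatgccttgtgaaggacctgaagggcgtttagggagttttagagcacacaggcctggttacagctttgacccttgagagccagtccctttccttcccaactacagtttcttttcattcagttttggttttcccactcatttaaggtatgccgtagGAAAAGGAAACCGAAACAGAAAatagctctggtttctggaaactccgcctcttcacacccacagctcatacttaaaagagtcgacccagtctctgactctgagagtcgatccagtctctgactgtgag
Oas1a: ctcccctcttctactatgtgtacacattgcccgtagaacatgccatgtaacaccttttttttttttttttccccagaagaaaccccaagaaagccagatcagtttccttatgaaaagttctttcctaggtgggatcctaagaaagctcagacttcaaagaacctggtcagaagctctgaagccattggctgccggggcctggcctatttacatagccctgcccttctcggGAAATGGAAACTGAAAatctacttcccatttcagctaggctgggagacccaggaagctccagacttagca
Trim21: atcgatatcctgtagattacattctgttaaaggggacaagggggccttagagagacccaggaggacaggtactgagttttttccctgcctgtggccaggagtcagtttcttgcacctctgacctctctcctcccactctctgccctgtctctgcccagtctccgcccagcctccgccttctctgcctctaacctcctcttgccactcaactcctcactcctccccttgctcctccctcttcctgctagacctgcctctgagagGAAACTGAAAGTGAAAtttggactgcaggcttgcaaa
The core starts 78 bases before the start of Isg15, 20 bases before that of Oas1a and 13 bases after that of Trim21. Across the 12307 tested genes with a window, 416 (3.38%) held this core. It was held by 18 of 36 windows of the list (50.0%), by 40 of 374 windows of genes at least 2-fold higher in the C91A line (10.7%), and by 10 of 186 of those at least 2-fold lower (5.38%). Outside the list, 30 of 356 genes at least 2-fold higher held it (8.43%). A match describes letters in a window, not binding.

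Of the 47 list members tested, 43 were higher (91.5%, against 17.6% of all genes) and 1 was lower, 28 were at least 2-fold higher (against 3.13% of all genes) and the median log2 fold change was 1.28. Ifitm2 was the 1 lower member (-0.26). By the naming rule, Trim21, an antibody receptor, stood at 8.21, 7.82 and 7.03 CPM in the C91A line and 1.67, 2.29 and 2.27 CPM in the knockout line (log2 fold change 1.90, SE 0.17, adjusted p = 2.0e-12). Oasl2, of the oligoadenylate synthetase family, stood at 21.7, 21.4 and 20.8 against 6.46, 5.09 and 7.65 CPM (log2 fold change 1.74, SE 0.11, adjusted p = 8.1e-17). Parp14 (1.65) and Parp10 (1.32), which transfer ADP-ribose, completed the 4. No range overlapped between the lines for these genes.

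The largest differences of the group were at low counts. Isg15, a ubiquitin-like modifier, had 9.63, 9.395 and 8.73 CPM in the C91A line and 0.835, 0.9799 and 0.844 CPM in the knockout line (log2 fold change 3.37, SE 0.21, adjusted p = 7.1e-17). Usp18, which removes it, had 7.73, 8.72 and 8.92 against 0.264, 0.653 and 0.844 CPM (log2 fold change 3.87, SE 0.25, adjusted p = 1.1e-16). Oas1a had 5.29, 5.44 and 5.08 against 0.0879, 0.233 and 0.105 CPM, so the fold rests on a handful of counts in the knockout line, and its near copy Oas1g had 3.19, 2.72 and 2.02 against 0, 0.0467 and 0.0527 CPM. Ifi27, which the list does not hold, went from 0.4396, 0.0933 and 0.105 CPM in the knockout line to 22.8, 19.6 and 19.7 CPM in the C91A line (log2 fold change 6.50, SE 0.24, adjusted p = 1.6e-24). The RNA sensors followed: Ifih1, which encodes MDA5, stood at 3.26, 4.76 and 4.04 against 0.352, 0.27996 and 0.369 CPM (log2 fold change 3.58, SE 0.33, adjusted p = 4.6e-12), and Ddx58, which encodes RIG-I, at 65.6, 78.99 and 72.9 against 29.5, 30.3 and 28.96 CPM (log2 fold change 1.30, SE 0.07, adjusted p = 4.6e-20). In each of these genes the 3 libraries of the C91A line were above the 3 of the knockout line.

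Of the factors of the pathway, Irf9 was higher by 0.72, Irf1 by 0.65 and Stat2 by 0.23 on the log2 scale, each below the list's median, and Irf7 by 1.95 at a low level. The immunity-related GTPases Irgm2 (2.41) and Igtp (1.65), neighbours of Irgm1 in function though outside the list, were higher with it. The C91A line was above wild type in mean CPM for 47 of 47 members and the knockout line for 15. In wild type Isg15 stood at 0.956 ± 0.411 CPM, near the knockout line. The 22 tested genes of MHC class I and antigen processing, which interferon also raises in many cells, did not follow as a group. Of these, 5 were higher and 5 lower (22.7% each way, against 17.6% and 17.3% of all genes), with a median of -0.08. H2-T22 was higher by 0.70.

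**Figure D3:**
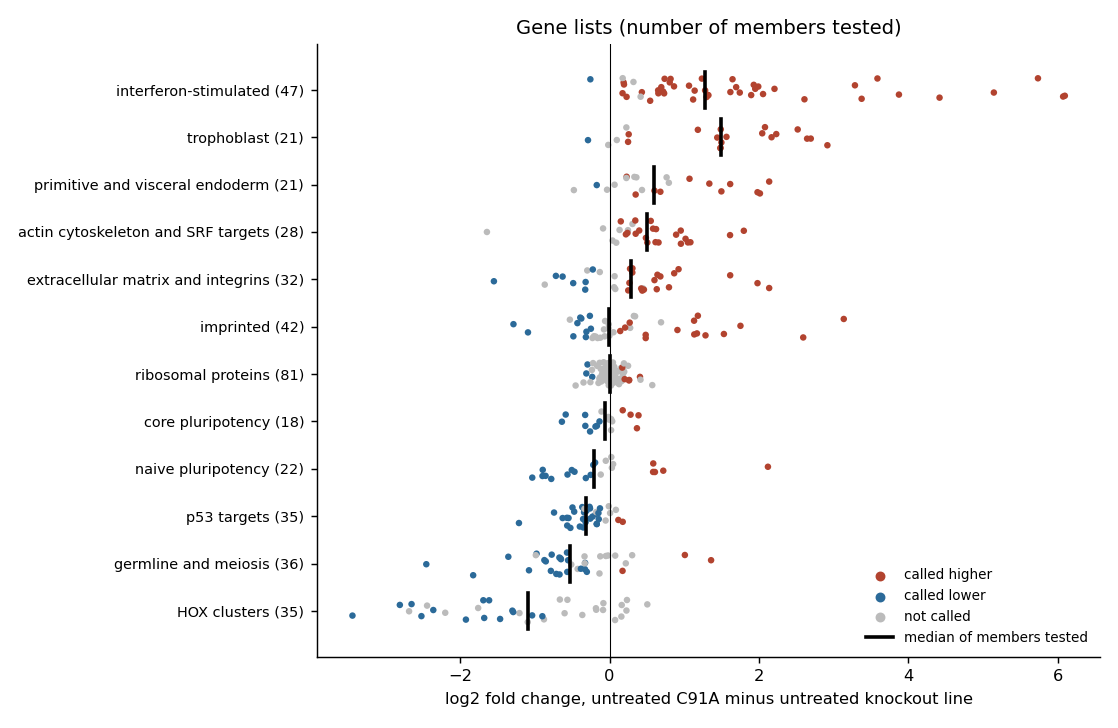
Log2 fold change between the untreated lines (x axis) of the tested members of 12 gene lists, 1 point per gene, coloured by call, with the median as a black bar; vertical scatter within a row carries no value. Medians run from 1.49 for trophoblast and 1.28 for interferon-stimulated genes, through 0.00 for ribosomal proteins, to -0.31 for p53 targets, -0.53 for germline genes and -1.09 for the Hox clusters.

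Genes of primitive and visceral endoderm, the epithelium that lines the early yolk cavity, were partly higher, 11 of 21 tested (52.4%, against 17.6% of all genes). The 1 lower member (4.76%, against 17.3%) was Apoe (-0.17), a call lost without C91A replicate 2. The median was 0.60. Col4a2 and Col4a1, the paired type IV collagen genes on chromosome 8, stood at 248, 239 and 252 against 55.7, 53.6 and 58.8 CPM (log2 fold change 2.14, SE 0.05, adjusted p = 5.6e-31) and at 333, 352 and 356 against 86.4, 85.7 and 91.99 CPM (log2 fold change 1.98, SE 0.05, adjusted p = 5.3e-32). Sparc, which binds collagen, stood at 670.0, 686 and 686 against 221, 223 and 223 CPM (log2 fold change 1.61, SE 0.04, adjusted p = 1.2e-30). Wild type held 237 ± 9.18, 427 ± 8.18 and 632 ± 6.28 CPM, with the C91A line, so for these genes the knockout line was the low one. Over the list, mean CPM was above wild type for only 4 of the 21 genes in the C91A line and for 1 in the knockout line. Of the laminins, Lama1 was higher by 0.68 and Lamb1 by 0.60 on the log2 scale, and Lamc1 (0.07) did not pass the test. The endocytic receptor Cubn (2.01) and the adaptor Dab2 (1.07) were higher as well.

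The transcription factors that define primitive endoderm stood out less. Gata4 was at 7.53, 7.52 and 6.64 against 5.32, 5.65 and 6.17 CPM (log2 fold change 0.35, SE 0.12, adjusted p = 0.0256), a call lost in 5 of the 13 alternative settings, and Gata6, Sox17, Sox7 and Pdgfra did not pass the test and reached at most 2.08 CPM in any library of the lines. The 6 primitive endoderm markers summed to 19.4 to 20.3 CPM in the C91A line, 12.04 to 13.9 CPM in the knockout line and 32.4 to 34.4 CPM in wild type. Their part in the differences of collagen and laminin genes was not tested.

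Matrix and adhesion genes overall leaned the same way. The list of 32 extracellular matrix and integrin genes shares Col4a1, Col4a2, Sparc and the laminins with the endoderm list. Of the 32, 18 were higher (56.25%, against 17.6% of all genes) and 7 lower (21.9%, against 17.3%), with a median of 0.29. The integrin subunit Itgb3 (0.87) was among the higher. Fibronectin (Fn1, -0.22) and nidogen (Nid1, -0.63) were among the lower. Of 28 genes of the actin cytoskeleton and targets of serum response factor (SRF), 21 were higher and 7 did not pass, with a median of 0.50. Acta1, the skeletal muscle actin, stood at 14.99, 12.3 and 10.9 against 3.87, 4.01 and 2.95 CPM (log2 fold change 1.80, SE 0.15, adjusted p = 5.5e-13). Ccn1, a matricellular gene induced by spreading and stretch, stood at 114, 123 and 122 against 57.1, 57.8 and 54.5 CPM (log2 fold change 1.08, SE 0.05, adjusted p = 5.2e-21). Anxa1 (1.61), Anxa3 (1.05), Tpm1 (0.89) and the abundant Actb (0.35) were higher too. Mean CPM exceeded that of wild type for 18 of the 28 genes in the C91A line and for 2 in the knockout line.

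Naive pluripotency genes, which mark the ground state of the inner cell mass, were more often lower than higher in the C91A line: 12 of 22 lower (54.5%, against 17.3% of all genes) and 5 higher (22.7%, against 17.6%), with a median of -0.21. Klf4 stood at 135, 126 and 139 CPM in the C91A line and 246, 249 and 248 CPM in the knockout line (log2 fold change -0.90, SE 0.05, adjusted p = 9.7e-20), with wild type at 105 ± 5.26. Prdm14, a repressor that holds the naive state, stood at 16.3, 16.6 and 17.7 against 35.2, 33.8 and 34.5 CPM (log2 fold change -1.03, SE 0.08, adjusted p = 3.6e-14). Gbx2 (-0.89) and Jam2 (-0.86) were lower as well, while Dppa3, of the early germ line, was higher by 0.72. For Klf4, Prdm14 and Jam2 wild type was below both lines, so the knockout line was the farther from it. Mean CPM was above wild type for 20 of the 22 genes in the C91A line and for 17 in the knockout line. Core factors differed slightly in size: of 18, 4 were higher (22.2%) and 8 lower (44.4%). Pou5f1 was at -0.19, Sox2 at -0.17, Nanog at -0.32 and the RNA-binding Lin28a at 0.39. Of 17 genes of the formative epiblast, the state after the naive one, 4 were higher (23.5%) and 5 lower (29.4%), with Pou3f1 higher (0.72) and Lef1 lower (-1.62).

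The enzymes that set DNA methylation anew were higher in the C91A line, while those that maintain it did not pass the test. Dnmt3l, the cofactor of the new methyltransferases, stood at 398, 396 and 402 CPM in the C91A line and 191, 183 and 181 CPM in the knockout line (log2 fold change 1.11, SE 0.04, adjusted p = 1.6e-24). Dnmt3b stood at 377, 394 and 399.7 against 200.3, 202 and 209 CPM (log2 fold change 0.94, SE 0.04, adjusted p = 5.2e-21) and Dnmt3a was higher by 0.44 on the log2 scale. Ranges did not overlap for any of the 3. Dnmt1, the maintenance enzyme, differed by 0.01 (SE 0.04) and its partner Uhrf1 by -0.04 (SE 0.04), neither past the threshold. Tet2, which oxidises the mark, was lower (-0.55). Wild type had 321 ± 15.8 CPM of Dnmt3l and 426 ± 20.4 CPM of Dnmt3b, nearer to the C91A line for both. Over the whole list of 15, 3 were higher and 3 lower.

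Signalling genes differed in sets rather than as whole lists. Of 31 genes of TGF-beta, Nodal and BMP signalling, 10 were higher (32.3%, against 17.6% of all genes) and 9 lower (29.0%, against 17.3%), with a median of 0.01. Of the BMP genes, Bmp8b, a ligand, was higher at 17.97, 19.5 and 18.5 against 5.58, 4.57 and 5.17 CPM (log2 fold change 1.87, SE 0.11, adjusted p = 1.0e-17), and the BMP targets Id3 and Id1 were higher by 1.43 and 1.07 on the log2 scale, while the ligand Bmp7 (-0.06) did not pass the test. Nodal was lower (-0.45), and so were its targets and inhibitors Lefty2 (-0.75) and Lefty1 (-0.56), while the related ligand Gdf3 (0.00) did not pass. The activin subunit genes were lower, with Inhbb at 11.1, 10.7 and 10.4 against 37.4, 38.03 and 42.4 CPM (log2 fold change -1.87, SE 0.10, adjusted p = 5.5e-19) and Inhba by -2.68 at a low level, and Fst, which encodes the activin inhibitor follistatin, was higher (0.65). These genes were grouped after their values were seen.

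Of 28 WNT ligands and targets, 11 were higher (39.3%, against 17.6% of all genes) and 8 lower (28.6%, against 17.3%), with a median of 0.02. Wnt7b, a ligand, was higher at 67.5, 68.9 and 68.4 against 30.7, 31.96 and 30.8 CPM (log2 fold change 1.13, SE 0.07, adjusted p = 3.0e-17), whereas the target Notum, an extracellular WNT inhibitor, was lower (-1.11). Gli1 and Ptch1 of the hedgehog pathway were looked at after Gli2 appeared among the 10 lowest genes, with no list of the pathway behind them, and each of the 3 was lower. Gli2 stood at 31.9, 26.7 and 34.1 CPM in the C91A line and 106, 104 and 106 CPM in the knockout line (log2 fold change -1.78, SE 0.07, adjusted p = 8.3e-24). Gli1, itself a hedgehog target, stood at 37.9, 29.8 and 35.4 against 102, 101 and 94.5 CPM (log2 fold change -1.54, SE 0.08, adjusted p = 1.6e-20), and the receptor Ptch1, another target, at 132, 124 and 133 against 209, 218 and 229 CPM (log2 fold change -0.76, SE 0.05, adjusted p = 3.2e-15). Wild type was nearer to the C91A line, with 24.8 ± 2.21, 27.3 ± 3.94 and 90.3 ± 4.26 CPM. Of 26 genes of ERK feedback and immediate early response, 11 were higher (42.3%, against 17.6%) and 4 lower (15.4%, against 17.3%), with a median of 0.24. Among them were Egr1 (0.78) and Dusp4 (0.71) higher and Spry4 (-0.63) lower.

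Targets of the tumour suppressor p53 were lower together by small amounts. Of 35 tested, 27 were lower (77.1%, against 17.3% of all genes) and 2 were higher, Tigar by 0.18 and Trp53, the p53 gene itself, by 0.12, a call lost in 5 of the 13 alternative settings. The median log2 fold change was -0.31 and 1 member passed 2-fold, the death receptor Fas (-1.21). Epha2, a receptor kinase, stood at 131, 137 and 142 CPM in the C91A line and 230.5, 226 and 229.7 CPM in the knockout line (log2 fold change -0.74, SE 0.05, adjusted p = 1.1e-16). Trp53inp1 stood at 206, 227 and 235 against 313, 336 and 328 CPM (log2 fold change -0.55, SE 0.06, adjusted p = 2.2e-10). Ddit4l (-0.63) and Dcxr (-0.57) were lower as well. The best known targets differed less, Mdm2 by -0.27, the cell cycle inhibitor Cdkn1a by -0.23 and Bax by -0.17, the last a call lost without C91A replicate 2 (adjusted p 0.180). Mean CPM was above wild type for 11 of the 35 genes in the C91A line and for 31 in the knockout line.

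Germline and meiosis genes, many of them silenced in embryonic stem cells by DNA methylation and a PRC1 complex, were lower in the C91A line: 21 of 36 (58.3%, against 17.3% of all genes), with 3 higher and a median of -0.53. Hormad1 stood at 5.15, 2.47 and 3.58 CPM in the C91A line and 13.4, 13.8 and 10.8 CPM in the knockout line (log2 fold change -1.82, SE 0.16, adjusted p = 1.4e-12). Stag3, a meiotic cohesin, stood at 66.2, 59.2 and 63.4 against 155, 164 and 163 CPM (log2 fold change -1.35, SE 0.06, adjusted p = 6.1e-23), with wild type at 73.1 ± 1.27. Ddx4, the germ cell helicase, stood at 30.7, 32.99 and 32.3 against 64.6, 60.3 and 64.5 CPM (log2 fold change -0.98, SE 0.06, adjusted p = 4.3e-17). Zcwpw1 (-1.08), Piwil2 (-0.71), Dazl (-0.67) and Sycp3 (-0.67) were lower too. Tdrd12, of the same small RNA pathway as Piwil2, went the other way at 51.5, 56.9 and 54.96 against 28.4, 26.6 and 26.4 CPM (log2 fold change 1.01, SE 0.06, adjusted p = 1.2e-16).

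The Hox genes, classical Polycomb targets, were mostly near the limit of detection in both lines. Of 35 tested, 14 were lower in the C91A line (40.0%, against 17.3% of all genes), 13 of them at least 2-fold (against 1.7%). The median log2 fold change was -1.09, or -1.06 with the 1 member at 0 in the C91A line left out as too low for a fold. Hoxc13 (-0.90) reached a few CPM. Hoxb8 stood at 0.271, 0.298 and 0.521 CPM in the C91A line and 1.27, 1.21 and 1.64 CPM in the knockout line (log2 fold change -1.92, SE 0.37, adjusted p = 5.7e-05). The number called lower was 8 without C91A replicate 2 and 6 in a fit of the 6 libraries alone.

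Genes on 2 autosomes leaned one way. On chromosome 11 the median log2 fold change of 1325 tested genes was 0.13, with 481 higher (36.3%) and 150 lower (11.3%) in the C91A line. On chromosome 8 the median of 860 genes was 0.09, with 264 higher (30.7%) and 79 lower (9.19%). On the other 17 autosomes and the X chromosome medians ran from -0.05 to 0.01 and the share higher from 11.3% to 20.2%. Few genes were tested on the rest: of 6 on the Y chromosome 5 were higher and none lower (median 1.21), and of 19 mitochondrial genes 1 was higher and 3 were lower (median -0.15). Chromosomes 11 and 8 were also cut into windows of 10 megabases, using genes averaging a log2 CPM of 2 or more. All 12 windows with at least 20 such genes on each of the 2 had a median above 0. These medians ran from 0.08 to 0.20 on chromosome 11 and from 0.01 to 0.16 on chromosome 8, so the shifts were spread along the chromosomes. Over genes at that level, measured against the wild type mean, chromosome 11 stood at 0.16, 0.15 and 0.14 in the C91A libraries. In the knockout libraries it stood at 0.01, -0.00 and 0.01. Chromosome 8 stood at -0.10, -0.12 and -0.13 in the C91A libraries and at -0.22, -0.23 and -0.22 in the knockout libraries, below wild type in both lines. Copy number was not measured. Among the genes described above, Irgm1, Tns4, Hand1, Krt19 and Sparc lie on chromosome 11 and Col4a1, Col4a2, Acta1 and Gab1 on chromosome 8, with differences far above these medians. Foxk2 (0.31), Ube2o (0.26) and Trp53 (0.12), also on chromosome 11, were nearer to its median. The part of the chromosome shifts in any single gene was not tested.

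**Figure D4:**
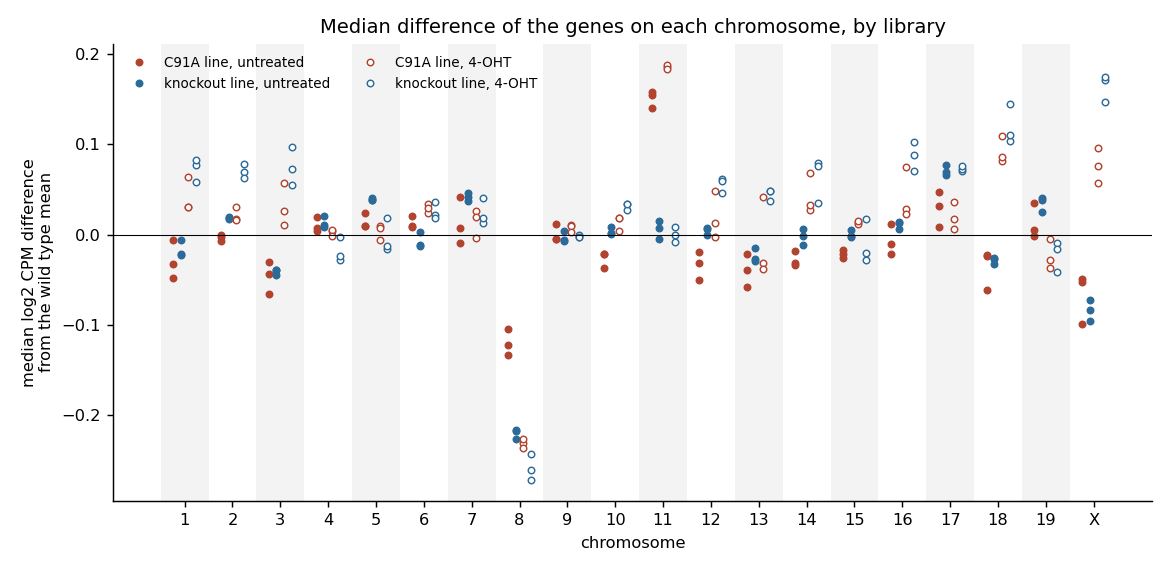
Median log2 CPM difference from the wild type mean (y axis) of the tested genes on each autosome and the X chromosome (x axis), 1 point per library of the untreated lines (filled) and of the lines after 4-OHT (open). The C91A libraries stand above 0 on chromosome 11, at 0.14 to 0.16 untreated, and chromosome 8 is below 0 in all of these libraries.

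Sex-linked genes differed in part. Kdm5d, a Y-linked demethylase, stood at 2.51, 2.47 and 1.498 CPM in the C91A line and 0, 0.187 and 0.158 CPM in the knockout line (log2 fold change 4.21, SE 0.45, adjusted p = 4.4e-10). The Y-linked Uty (1.42) and Ddx3y (0.91) were higher as well, while the Y-linked Eif2s3y (0.06, SE 0.09) and Xist, the RNA that silences an X chromosome (0.03, SE 0.16), did not pass the test. Eif2s3y was read in every library, at 22.3, 20.1 and 19.6 and 19.5, 21.98 and 17.6 CPM, so neither line lacked Y-linked transcripts. Erdr1, next to Mid1 at the end of the X chromosome, stood at 40.8, 31.6 and 32.5 against 16.9, 17.6 and 18.3 CPM (log2 fold change 0.98, SE 0.09, adjusted p = 2.6e-12).

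Some of the large differences lay side by side. Of the 504 genes at least 2-fold higher that could be placed on a chromosome, 85 (16.9%) had a nearest tested gene that was also at least 2-fold higher, against 3.16% of all placed genes that were so called. For the 272 lower genes the number was 28 (10.3%, against 1.71%). Among genes averaging a log2 CPM of 2 or more, the shares were 23 of 171 of the higher (13.5%, against 1.47%) and 2 of 65 of the lower (3.08%, against 0.56%). Runs of the higher genes included the Oas genes of chromosome 5, Rhox5, Rhox6 and Rhox9, H19 with Igf2 and Ascl2 on chromosome 7, Meg3 with Rian and Mirg on chromosome 12, and Serpinb9 with Serpinb9b on chromosome 13. Runs of the lower genes included Hoxb genes of chromosome 11 and Gli2 with Inhbb on chromosome 1. Some of these are families of near copies, whose reads may be shared between members, or overlapping transcripts, and how counting treated strand is not stated in the sources used here.

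The difference between the lines was measured again in other libraries, those of both lines after 4-OHT. The treated pair shares no library with the untreated pair, though by the labels the treated C91A line carries the mutant enzyme and the treated knockout line a deleted gene, which the counts of Bap1 above do not check. Between the treated lines 8548 genes passed the threshold (50.7% of those tested), 26.0% higher and 24.7% lower in the C91A line. Of the 5891 genes that differed before treatment, 3922 differed in the same direction after it (66.6% of the untreated calls and 45.9% of the treated ones), and 304 (5.16%) in the opposite direction. Of the 815 genes with at least a 2-fold difference before treatment, 571 (70.1%) passed the test after it in the same direction and 9 in the opposite one. At least 2-fold in both pairs and the same direction were 505 genes, 62.0% of 815 and 32.0% of the 1578 at least 2-fold after treatment (9.35% of those tested).

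**Figure D5:**
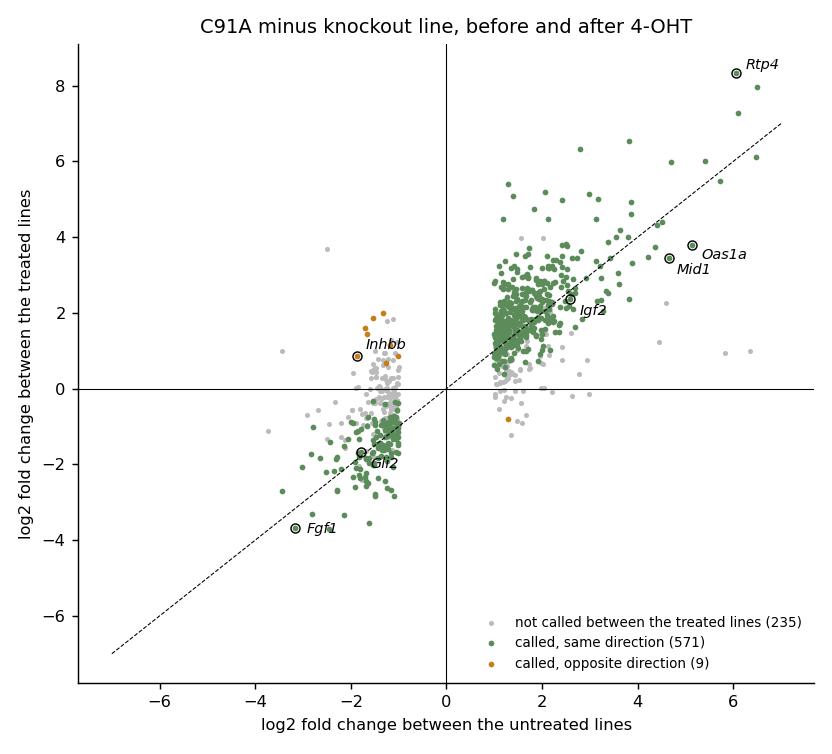
Log2 fold change between the treated lines (y axis) against that between the untreated lines (x axis) for the 815 genes at least 2-fold apart before treatment; the dashed line marks equal values. Points coloured as the same direction number 571, those opposite 9 and those not called after treatment 235.

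The median changed sign between the untreated and the treated pair for 12 of the 34 lists. Among them were core pluripotency (-0.06 to 0.16), the BCL2 family (-0.11 to 0.11), PRC2 (-0.04 to 0.19), MHC class I (-0.08 to 0.07), imprinted genes (-0.01 to 0.13) and DNA methylation (0.03 to -0.03). Several of these medians were near 0. Over the alternative settings the untreated median of imprinted genes ran from -0.03 to 0.06, so its sign was not settled before treatment. Those of the other lists named here kept their sign. The trophoblast, interferon, endoderm, actin, p53, germline and Hox lists kept their sign. Interferon-stimulated genes had 39 of 47 higher and a median of 2.01, with 38 of the 43 higher before treatment called so again. Trophoblast genes had 16 of 21 higher and a median of 1.92, with 15 of the 17 called so again. Of the 27 p53 targets lower before treatment, 25 were lower after it, with a median of -0.36. Of the 21 germline genes lower before treatment 13 were lower after it, and of the 14 Hox genes 11 were. These counts stand beside the 66.6% of all untreated calls that were called in the same direction after treatment. The 31 TGF-beta, Nodal and BMP genes, split before treatment, had 21 higher and 3 lower after it, and none of the 9 lower before treatment was lower again. The shift of chromosome 11 was also present between the treated lines, with a median of 0.20, and that of chromosome 8 was 0.06, while on the other 17 autosomes and the X chromosome medians ran from -0.08 to 0.04. The ribosomal protein genes, which did not separate the untreated lines (6 higher and 3 lower of 81, median 0.00), were lower in the treated C91A line for 66 of 81, with a median of -0.35.

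Wild type levels showed which line stood apart. Of the 528 genes at least 2-fold higher in the C91A line, wild type lay between the lines for 426, nearer to the C91A line for 272 and nearer to the knockout line for 154. It lay above both for 73 and below both for 29. Of the 287 genes at least 2-fold lower, wild type lay between the lines for 183, nearer to the C91A line for 120 and nearer to the knockout line for 63, below both for 79 and above both for 25. By either direction wild type was nearer in mean log2 level to the C91A line for 345 of 528 and for 199 of 287 genes. The same wild type libraries served both lines, so these are counts with no test.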

How the data were processed

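Polyadenylated RNA of mouse embryonic stem cells was sequenced as single 50-base reads after RNeasy extraction with DNase treatment and TruSeq preparation, per the labels' protocols. Reads were aligned with GSNAP to GRCm38, per the submitters' processing notes; the gene models, the GSNAP version and the treatment of read strand are not given in the sources used here. The authors deposited for each library a count per Entrez gene and a size-factor-adjusted RPKM, per the file headers. Tests used the deposited counts; the deposited RPKM values served only to recover the authors' size factors for 1 alternative. Each library listed 36528 genes, of which 31049 took their symbol from RefSeq (GRCm38.p6) and 78 from GENCODE, and named genes held 97.89% to 98.11% of counts.

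Genes were filtered with filterByExpr, which left 16875, scaled by TMM and tested with edgeR 4.0.16 (quasi-likelihood, R 4.3.3, limma 3.58.1), with 1 mean per group and all 18 libraries sharing the estimate of spread. P-values were adjusted by Benjamini-Hochberg over all 16875 genes, with 0.05 as the threshold, and SE was taken as the size of the log2 fold change over the root of its F statistic. Libraries of a group varied with a common coefficient of variation of 4.47% (dispersion 0.002). In a test on simulated data of 16379 genes for this comparison, 88 of 98 genes changed 2-fold and 62 of 97 changed 1.5-fold were recovered, with 9 false calls.

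The members and the 34 gene lists were chosen with earlier results of these data known. The genes named were those of the study's design (Bap1, Rnf2, Bcl2, Mcl1), the called genes with the 10 highest and 10 lowest log2 fold changes among those averaging a log2 CPM of 2 or more with ranges that do not overlap, the 4 largest called members of each list at that level, fixed markers and sex-linked genes; some that this rule picks are not reported here. The following were chosen after their values were seen: Gli1, Ptch1, Erdr1, Irgm2, Igtp, Mirg, Meg3, Sfmbt2, Serpinb9, Serpinb9b, Oas1g, Oas1a, Usp18, Ifih1, Isg15, Irf7, Stat2, Dppa3, Krt8, Krt18, Krt19, Krt7, Esx1, Plet1, Gata3, Cdx2, Ascl2, Gata2, Lama1, Lamb1, Cubn, Fas, Mdm2, Cdkn1a, Bax, Trp53, Tigar, Pmaip1, Ddx4, Dazl, Piwil2, Sycp3, Actb, Tpm1, Id1, Nodal, Nnat, Slc38a4, Gab1, Hoxb8, Hoxc13, Ifitm2, Irf9, Irf1, Fn1, Nid1, Ddx58, Apoe, Krt17, Ccl2, Hopx, Dnmt1, Uhrf1, Ifi27, Inhba, Lamc1, Bcl2l1, Bcl2l2, Fst, Gdf3 and Bmp7. Tfap2c, Tead4, Eomes, Ets2 and Tfap2a were also chosen after their values were seen. In the list of LIF and STAT3 genes an older synonym that the reference table pairs with another gene was left out. Alternatives were other scalings, filters, depths, sample sets and DESeq2 1.42.0.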

Additional observations from a re-analysis of the deposited data

Results flagged for a closer look

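The difference between the lines was compared before and after 4-OHT with an interaction term in edgeR's quasi-likelihood fit, for 23 of the genes that the naming rule picks as the study's genes or the highest and lowest. Over all genes, 4375 of 16875 (25.9%) had a line difference that changed at an adjusted p under 0.05, and 10 of these 23 did. Of these 10 differences, 7 were smaller in size after treatment and 3 larger. The highest and lowest genes were picked for their untreated difference, which the interaction subtracts, so the choice itself favours smaller differences after treatment. The count of 10 can therefore not be weighed against the share of all genes. Values are the treated minus the untreated difference on the log2 scale, each difference being C91A minus knockout line.

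Among the study's own genes, Bcl2 changed by 3.74 (SE 0.46, adjusted p = 3.2e-08), from lower in the C91A line before treatment to higher after it. Bap1 changed by 1.07 (SE 0.07, adjusted p = 4.9e-15), since the low level of the untreated C91A line was not seen after treatment. Mcl1 changed by 0.53 (SE 0.06, adjusted p = 2.8e-09).

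Of the genes lowest in the C91A line, Inhbb changed by 2.72 (SE 0.24, adjusted p = 1.5e-11), and its difference turned from -1.87 to 0.85. Msln changed by 1.01 and Zfp229 by 0.49, both still lower in the C91A line after treatment. Of the genes highest in the C91A line, Psd4 changed by 1.37 and Rhox5 by 0.26, further apart after treatment. Mid1 changed by -1.21 and Igf2 by -0.23, still higher in the C91A line. The differences of Inhbb, Msln, Zfp229, Mid1 and Igf2 were smaller in size after treatment, the direction that picking genes by their untreated difference favours. The part of this picking in their changes was not tested.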

How the results depend on the processing

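Under 13 alternatives the counts of genes higher (2586 to 3103) and lower (2412 to 2976) in the C91A line stayed within 1.5 times 2967 and 2924, and 49.6% to 52.5% of calls were higher. Genes at least 2-fold lower numbered 175 in place of 287 when at least 1 CPM in 3 of the 6 libraries was required, which tests fewer genes, and at least 2-fold higher 401 to 596. Calls kept between the treated lines were 3922, or 505 when at least 2-fold in both pairs. Hox genes lower in the C91A line were 14, but 4 with the filter at 1 CPM, which leaves fewer to test, 6 in a fit of the 6 libraries alone and, leaving out each replicate in turn, 8 to 13; the cause was not tested. Trophoblast genes higher ranged from 15 to 17, interferon-stimulated genes higher from 40 to 43, p53 targets lower from 23 to 27 and germline genes lower from 17 to 22. Of 243 named genes, 221 passed the test and 18 lost their call in at least 1 alternative, among them Bcl2, Gata4, Trp53, Bax, Gata2 and Apoe, while 4 gained one, and no called difference changed direction. No paired analysis was possible because the labels give replicates no numbers. The replicate numbers used here follow the order in which the samples of a group are listed and pair no libraries between groups. Depth of 14.4 to 23.01 M counts limits what can be said of genes under 1 CPM, such as most Hox genes and several interferon-stimulated genes in the knockout line.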

Other observations

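Several gene groups not described above had medians between -0.09 and 0.07, where 17.6% of all genes were higher and 17.3% lower. Of 31 replication genes 5 were higher and 5 lower (median -0.04), and of 26 mitosis genes 8 were higher and 3 lower (median 0.07), with Cdk1 at 0.25. Of 34 glycolysis and hypoxia genes 8 were higher and 8 lower, with Egln3, an oxygen sensor, lower by -0.95 and the hexokinase Hk1 higher by 0.53. Of 25 cholesterol synthesis genes 3 were higher and 8 lower (median -0.09), led by Tm7sf2 at -0.44. Of 38 ATF4 response genes 6 were higher and 10 lower, and of 29 glutathione and xenobiotic enzymes 7 were higher and 8 lower, with Gstm2 at 1.30 and Cbr3 at -0.95. Of 19 LIF and STAT3 genes 6 were higher and 8 lower (31.6% and 42.1%, both above the share of all genes; median -0.07), with the feedback inhibitor Socs1 at 0.84 and the kinases Jak2 at 0.64 and Tyk2 at -0.55.

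Genes of other early lineages were mixed, each list with both shares above the 17.6% higher and 17.3% lower of all genes. Of 18 neuroectoderm genes 6 were higher and 8 lower (median -0.18), with Crabp2 at 0.94 and Pax6 at -1.01. Of 20 genes of mesoderm and primitive streak 5 were higher and 5 lower (median -0.12), with Mesp2 at -0.99. Of 26 fibroblast markers 7 were higher and 7 lower (median -0.15), with Bgn at 0.96 and Fbln2 at -0.84. None of these medians kept its sign over the alternative settings. They ran from -0.27 to 0.06 for neuroectoderm, from -0.23 to 0.23 for mesoderm and primitive streak and from -0.20 to 0.09 for fibroblast markers.

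At least 2-fold in both pairs but in opposite directions were 5 genes, each lower in the untreated and higher in the treated C91A line. They were Krt17, Ccl2, Hopx, Fer1l4 and LOC102637806, named after their values were seen. Krt17, a keratin, went from a log2 fold change of -1.17 (SE 0.11) to 1.15 (SE 0.22), and Hopx, a homeobox cofactor, from -1.33 (SE 0.19) to 2.01 (SE 0.44). Ccl2, a chemokine, was under 1.5 CPM in the untreated lines.

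Among tested genes with no symbol in the reference tables, 160 of 897 passed the test between the untreated lines, against 34.9% of all genes.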
